A study of Rattus norvegicus with 4 samples.

Results

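Imprinted genes were measured by RNA-seq in the hippocampus of newborn rats whose mothers had received bisphenol A (BPA), an estrogen-like plasticizer, during pregnancy. The 10 genes described here, H19, Meg3, Peg3, Dlk1, Cdkn1c, Plagl1, Grb10, Ndn, Snrpn and Mest, were chosen by symbol as growth and neural genes, because imprinted loci are reported targets of prenatal BPA. The symbols matched 9 of the 10 among 17445 listed genes and gene models. The row of Meg3 stood under an older symbol, RGD1566401, and was found through its gene ID, so that all 10 had a value in every library.

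Wistar dams, 10 weeks old per the labels, were given BPA at 5000 µg per kg of maternal body weight daily from gestation day 1 until parturition, or vehicle alone. Pups were collected on postnatal day 1. Each of the 4 groups (control and BPA in each sex) was 1 library made from 3 pooled hippocampi, so the spread between pups was averaged within a library and could not be seen. All 4 groups shared strain and age. The comparison of BPA with control therefore had 2 libraries on each side, 1 of each sex, and within a sex it was 1 library against 1. All p-values measure only the spread between these 4 libraries.

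Genomic imprinting is the expression of a gene mainly from the copy inherited from one parent, set by DNA methylation laid down in the egg or the sperm. Imprinted genes lie in clusters under shared control regions. Many paternally expressed members promote growth before birth and many maternally expressed members restrain it. Several, including Ndn and Snrpn in the interval deleted in Prader-Willi syndrome, are strongly expressed in the developing brain. RNA-seq of this kind measures the summed RNA of both copies and gives no view of which copy was active.

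Levels are given in FPKM, fragments scaled to transcript length and to the mapped total of the library, which is a per-length scale and can be compared between genes. The steps between low FPKM values placed the depth of the libraries at 8640000 to 8880000 fragments, from which the fragments behind each value and exact Poisson 95% intervals were obtained. These intervals cover counting error only. The hippocampal pyramidal or granule neuron markers summed to between 496 and 563 FPKM, and Neurod6, a defining one, lay between 135 and 161 FPKM in all 4 libraries. Markers of neighbouring tissue were less even. The 12 choroid plexus markers summed to 281 (vehicle) and 726 FPKM (BPA) in males and 21.9 and 57.8 FPKM in females. Of these, Ttr alone was at 256, 690, 3.96 and 42.4 FPKM in that order. The 12 markers of meninges and fibroblasts were all highest in female control, with sums of 82.2, 66.6, 176 and 73.0 FPKM in the same order. None of these 24 markers was at 0 in any library.

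The 10 genes spanned a wide range of levels. Ndn, which encodes the MAGE family protein necdin that holds neurons in a postmitotic state, was the most abundant, at 211 FPKM with vehicle and 204 with BPA in males, and 189 and 194 in females, above 97.8% of the 13542 genes with a mean of at least 1 FPKM. The maternally expressed long noncoding RNA Meg3 followed at 57.2 to 96.4 FPKM, and its range over the libraries did not meet that of Ndn or that of Peg3 below it. Peg3, at 35.7 to 40.9 FPKM, and Mest, at 31.2 to 42.9 FPKM, overlapped and were not separable. Plagl1 stood alone at 14.5 to 16.7 FPKM. Cdkn1c, Snrpn and Grb10 overlapped one another between 5.18 and 12.8 FPKM. H19, at 1.22 to 4.60 FPKM, and Dlk1, at 0.70 to 3.79 FPKM, were the least abundant and also varied the most. Their highest library was 3.77 times the lowest for H19 and 5.41 times for Dlk1, wider ratios than those of 96.3% and 97.5% of the tested genes. Ndn, Peg3 and Plagl1 were the steadiest, with ratios of 1.12, 1.15 and 1.15.

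**Figure D1:**
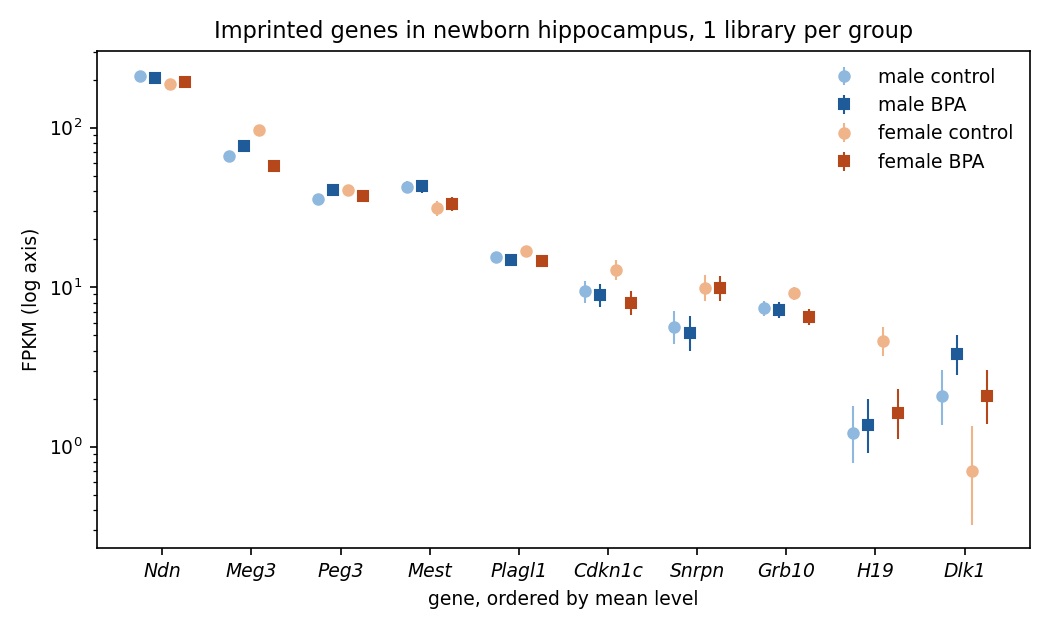
FPKM of the 10 imprinted genes on a log axis in the 4 libraries (circles, control; squares, BPA; blue, male; orange, female), with exact Poisson 95% intervals for counting error. Ndn sat between 189 and 211 FPKM, while H19 and Dlk1 sat at or below 4.60 FPKM and spread the most.

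Whether prenatal BPA changed these genes was addressed first over both sexes. None of the 10 passed an adjusted p under 0.05 in limma (Benjamini-Hochberg over 13542 rows), where 0% of all rows passed. None had an unadjusted p under 0.05 either, against 4.70% of all rows. That count was 1 of 10 with sex as a covariate, beside 1216 of the 13542 rows. Without male control, which left 1 control library, the differences of Dlk1 and H19 widened to 1.18 and -1.17 on the log2(FPKM + 1) scale. Those of Peg3 and Ndn changed sign. An exact permutation of 4 libraries cannot give a two-sided p below 0.333. Both BPA libraries lay above both controls for 1 of the 10 genes, Dlk1, beside 13.8% of all rows, and below both controls for 3, Cdkn1c, Plagl1 and Grb10, beside 19.9% of all rows. These shares are near the background at this number of genes. The median difference, BPA minus control on the log2(FPKM + 1) scale, was -0.091 over the 10 genes and -0.019 over all rows tested. In bulk tissue, fewer cells of a type and less RNA per cell cannot be told apart, which applies to every value here.

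Dlk1 had the largest difference of the 10. It is a paternally expressed transmembrane protein of the Notch ligand family that regulates the renewal and differentiation of precursor cells, among them postnatal neural stem cells. Its level was 2.07 (vehicle) and 3.79 FPKM (BPA) in males and 0.70 and 2.09 FPKM in females. The BPA library was higher within each sex, 1.83 times in males and 2.99 times in females. These values rested on 27, 49, 9 and 27 fragments, and across the sexes the lower BPA library and the higher control had the same number of fragments. Over both sexes the difference was 0.75 on the log2(FPKM + 1) scale (SE 0.36, 2 libraries against 2, limma adjusted p = 0.973), which did not pass the correction. With sex as a covariate the SE was 0.25 and the adjusted p 0.478. Male BPA was the highest library and female control the lowest for Dlk1 and also for the summed choroid plexus markers, of which 10 of 12 were highest in male BPA. The libraries between them, male control and female BPA, were level for Dlk1 and stood at 281 and 57.8 FPKM for the markers. Ttr made up most of the marker sum outside female control. It was at 256 (vehicle) and 690 FPKM (BPA) in males and 3.96 and 42.4 FPKM in females. Folr1, Kl, Kcnj13, Clic6, Aqp1 and Enpp2 were lowest in female BPA instead. Otx2, Sostdc1 and Kcne2 were lowest in female control, as Ttr was, and Cldn2 and Prlr in male control. The part of choroid plexus tissue in the Dlk1 values was not tested.

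Dlk1 lies beside Meg3, a noncoding RNA from the opposite parental copy, and beyond Meg3 lies Dio3, which encodes the deiodinase that inactivates thyroid hormone. Begain is the neighbour on the far side of Dlk1. The promoters of the neighbours Dlk1 and Meg3 are shown because the pair is read from opposite parental copies and differed widely in level. Each window runs from 250 bases before to 50 bases after the transcript start in RefSeq (build GRCr8, plus strand), with every CG, the dinucleotide that carries imprinting methylation, in capitals. Dlk1 is at chr6:134192347-134192646 and Meg3 at chr6:134273806-134274105.
Dlk1: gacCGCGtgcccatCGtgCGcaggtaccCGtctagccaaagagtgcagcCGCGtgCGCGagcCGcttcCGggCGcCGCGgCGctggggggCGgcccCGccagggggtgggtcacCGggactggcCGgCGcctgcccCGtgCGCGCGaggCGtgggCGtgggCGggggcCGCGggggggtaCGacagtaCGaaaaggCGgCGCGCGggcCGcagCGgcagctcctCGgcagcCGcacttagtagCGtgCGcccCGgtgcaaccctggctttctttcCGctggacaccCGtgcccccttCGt
Meg3: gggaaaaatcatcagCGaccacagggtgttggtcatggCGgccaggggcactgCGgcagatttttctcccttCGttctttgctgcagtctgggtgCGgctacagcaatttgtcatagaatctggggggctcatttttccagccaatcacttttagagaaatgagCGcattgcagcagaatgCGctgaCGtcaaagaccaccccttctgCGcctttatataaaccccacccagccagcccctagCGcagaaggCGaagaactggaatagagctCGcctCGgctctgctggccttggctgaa
The Dlk1 window held 45 CG dinucleotides and the Meg3 window 13. As many as in Dlk1 were found in 1.66% of the 33469 promoters of the table, and as many as in Meg3 in 35.3%, where the median was 7. Of the 8 members with a window in the table, Grb10 with 44 came nearest to Dlk1, and Plagl1 (29), Mest (18), Peg3 (16), Ndn (14) and Snrpn (11) held fewer. The cAMP response element TGACGTCA, a palindrome and so the same on both strands, was in the windows of Meg3 and Peg3 and in 1.83% of all promoters. Methylation was not measured, and these counts describe the sequence only.

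Meg3 was at 66.9 FPKM with vehicle and 76.7 with BPA in males, and 96.4 and 57.2 in females. The 2 BPA libraries lay on either side of the male control. With 5394 to 8926 fragments behind each value, the 4 counting intervals did not overlap, so the libraries differed by more than counting error. The BPA library was 1.15 times the control in males and 0.594 times in females. Over both sexes the difference was -0.27 (SE 0.20, limma adjusted p = 0.973), and without female control it was -0.013. Dio3 took the same signs with wider differences. It was at 2.70 (vehicle) and 6.10 FPKM (BPA) in males and 4.68 and 0.57 FPKM in females, on 43, 96, 73 and 9 fragments. The BPA library was thus 2.26 times the control in males and 0.122 times in females, and the difference over both sexes was -0.46 (SE 0.65, adjusted p = 0.98), which became 0.63 without female BPA. Whether the BPA difference itself differed between the sexes was not tested, since 4 libraries leave no spread for that interaction. Begain, at 46.0, 42.9, 32.7 and 32.3 FPKM in the same library order, was lower in both female libraries. The noncoding RNAs Rian and Mirg and the gene Rtl1 of this cluster had no matching row, so they were not analysed here.

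H19 and Igf2 form the best known imprinted pair, in which the maternal copy gives the H19 noncoding RNA and the paternal copy the insulin-like growth factor 2. H19 is also the host of miR-675, whose mature strands are shown because they are cut from this transcript. They are written 5′ to 3′ from RefSeq (GRCr8, minus strand, chr1:207161800-207161821 for the 5p and chr1:207161766-207161786 for the 3p strand) with the seed, bases 2 to 8, in capitals. The seeds of the 2 strands are different. Mature miRNAs were not measured.
rno-miR-675-5p: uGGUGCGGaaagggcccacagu
rno-miR-675-3p: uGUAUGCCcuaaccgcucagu
H19 was at 1.22 FPKM with vehicle and 1.37 with BPA in males, and 4.60 and 1.63 in females, on 25, 28, 92 and 33 fragments. Female control alone was high, and the intervals of the other 3 libraries overlapped. H19 was at 0.354 times control in females, or -1.09 on the log2(FPKM + 1) scale, the only 1 of the 10 genes past an absolute difference of 1 on that scale within a sex. In females 2.17% of all rows passed it, while Dlk1, at 0.86, stayed under it because the added 1 weighs on low levels. None of the 10 passed it in males, where 1.70% of rows did. The difference over both sexes was -0.50 (SE 0.42, limma adjusted p = 0.973), and without female control it became 0.17.

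Igf2 showed the same single high library. It was at 8.86 (vehicle) and 10.9 FPKM (BPA) in males and 29.6 and 8.16 FPKM in females. The BPA library was 0.276 times the control in females and 1.23 times in males, with a difference over both sexes of -0.73 (SE 0.47, limma adjusted p = 0.973) that became 0.082 without female control. Mrpl23, the neighbour of H19 on the other side, was level at 39.6 to 46.7 FPKM. Of a list of other imprinted genes, the 2 nearest to H19 over the 4 libraries were Dcn and Igf2, at Euclidean distances of 0.27 and 0.49 between centred log2(FPKM + 1) values. Dcn, which encodes the extracellular matrix proteoglycan decorin, was at 7.17, 6.18, 20.8 and 8.10 FPKM in the same library order. Female control was also the library in which all 12 meningeal and fibroblast markers were highest, at a sum 2.14 to 2.65 times that of the other libraries. Their part in the values of H19, Igf2 and Dcn was not tested.

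**Figure D2:**
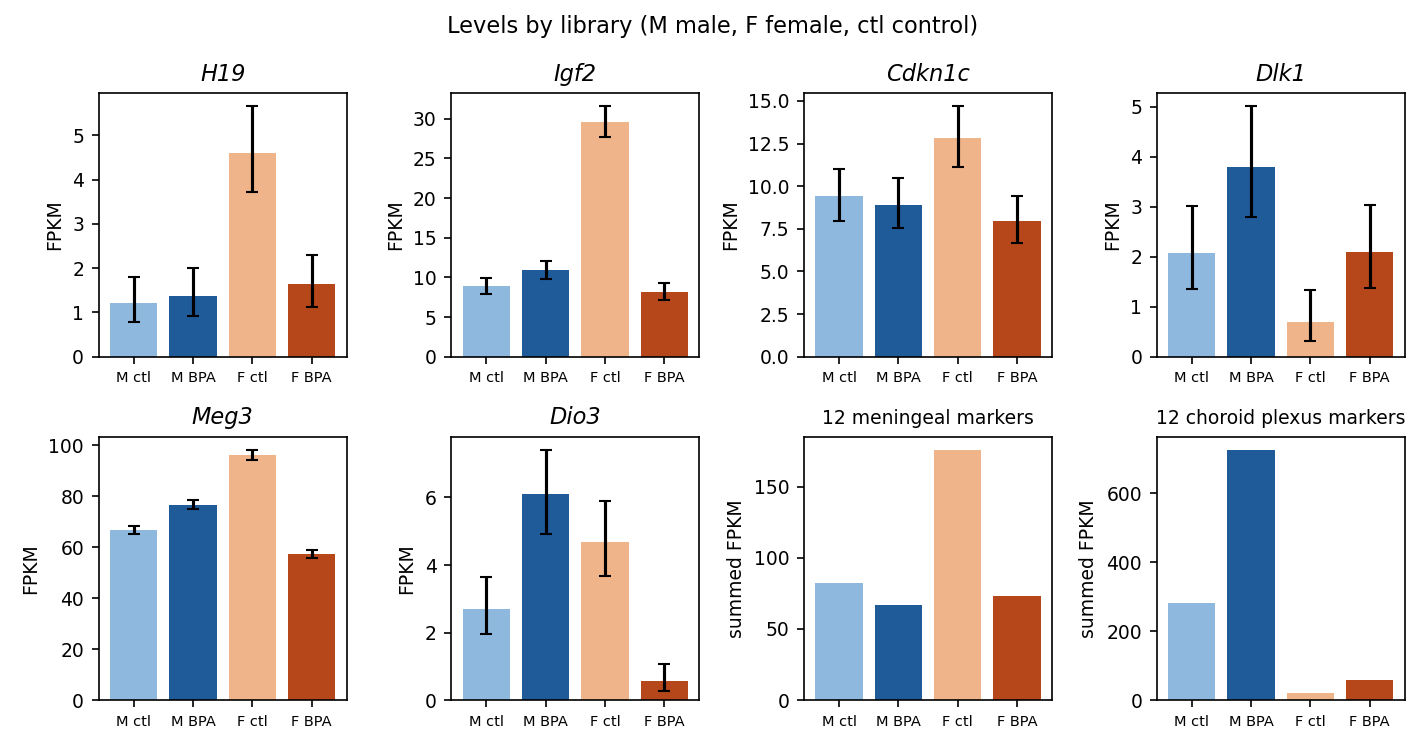
FPKM per library of H19, Igf2, Cdkn1c, Dlk1, Meg3 and Dio3 with exact Poisson 95% intervals (bars start at 0), and the summed FPKM of the 12 meningeal and 12 choroid plexus markers, which have no error bar. H19 (4.60 FPKM), Igf2 (29.6) and the meningeal markers (176) peaked in female control, whereas Dlk1 (3.79) and the choroid plexus markers (726) peaked in male BPA.

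Cdkn1c and Grb10, which restrain growth, were lower in both BPA libraries than in both controls, and neither difference passed the correction. Cdkn1c encodes p57Kip2, an inhibitor of cyclin-dependent kinases that brings precursor cells out of the cycle. It was at 9.41 FPKM with vehicle and 8.91 with BPA in males, and 12.8 and 7.96 in females. The 2 male libraries overlapped within counting error, at 156 and 147 fragments, and the gap lay in females, at 208 and 131. The difference over both sexes was -0.35 (SE 0.17, limma unadjusted p = 0.0871, adjusted p = 0.973), and it was -0.14 without female control. Its nearest neighbours in pattern were Zim1, a zinc finger gene, and Cobl, an actin nucleator, at distances of 0.20 and 0.29. Zim1 was at 2.03, 1.44, 2.41 and 1.36 FPKM and Cobl at 4.56, 3.92, 4.84 and 3.88 FPKM, in the library order used above (males before females, vehicle before BPA).

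Grb10 encodes an adaptor that dampens signalling from the insulin and insulin-like growth factor receptors, and in neurons it is read from the paternal copy. Its level was 7.36 (vehicle) and 7.18 FPKM (BPA) in males and 9.14 and 6.52 FPKM in females. As for Cdkn1c, the male pair was close, at 0.976 times, and the female pair was not, at 0.713 times. The difference was -0.23 (SE 0.16, limma adjusted p = 0.973), and it was -0.092 without female control. Plagl1, a paternally expressed zinc finger transcription factor that acts on other imprinted genes, was at 15.5, 14.9, 16.7 and 14.5 FPKM in the same library order. Its difference was -0.12 (SE 0.12, adjusted p = 0.973). Female control was the highest of the 4 libraries for 6 of the 10 genes (H19, Meg3, Cdkn1c, Plagl1, Grb10 and Snrpn), beside 29.7% of all rows. It was also highest for all 12 meningeal and fibroblast markers, for 7 of 10 endothelial and pericyte markers (summed to 198 FPKM, against 155 to 170 in the other libraries) and for 7 of 9 cycling cell markers (59.6 against 49.4 to 55.1 FPKM). Their part in these values was not tested.

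The paternally expressed Peg3, Ndn, Snrpn and Mest differed least between BPA and control. Peg3, which encodes a zinc finger protein tied to fetal growth and maternal behaviour, was at 35.7 FPKM with vehicle and 40.9 with BPA in males, and 40.8 and 37.4 in females. Its BPA library was higher in males and lower in females, and the difference over both sexes was 0.037 (SE 0.12, limma adjusted p = 0.988). An antisense row, Apeg3, was listed at 26.6, 27.5, 36.5 and 26.5 FPKM. The strand of the reads was not given in the sources used here, so reads of Peg3 and its antisense partner cannot be told apart. With the rows summed the difference was -0.069. For Ndn the difference was -0.0044 (SE 0.10, adjusted p = 0.997), for Snrpn -0.058 (SE 0.33, adjusted p = 0.991) and for Mest 0.05 (SE 0.18, adjusted p = 0.988). Leaving out male control turned Peg3 to -0.057 and Ndn to 0.078, and leaving out female control turned Snrpn to 0.30 and Mest to -0.17.

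**Figure D3:**
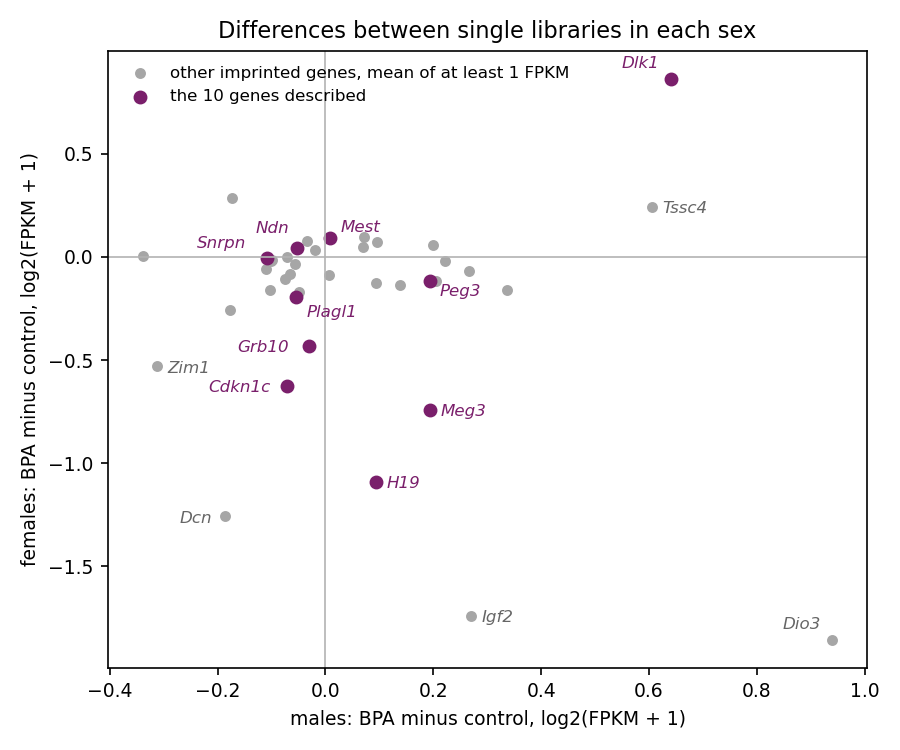
BPA minus control on the log2(FPKM + 1) scale in females (vertical) against males (horizontal) for the 10 genes (purple) and 30 other imprinted genes (grey), each point a difference between single libraries. Dlk1 was higher with BPA in both sexes (0.64 and 0.86), while Meg3 (0.19 and -0.74) and Dio3 (0.94 and -1.86) took opposite signs.

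The sexes were compared next, over both treatments. None of the 10 genes passed an adjusted p under 0.05 in limma, where 0.00738% of all rows (1 row) passed. Snrpn and Mest had an unadjusted p under 0.05, as did 10.6% of all rows. Both female libraries lay above both male libraries for 2 genes, Snrpn and H19, beside 19.8% of all rows, and below them for 2, Mest and Ndn, beside 22.5%. The median of female minus male was 0.045 over the 10 genes and -0.0052 over all rows.

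Mest, a paternally expressed gene for an enzyme of the alpha/beta hydrolase family that is linked to fetal growth, was at 42.6 (vehicle) and 42.9 FPKM (BPA) in males and 31.2 and 33.3 FPKM in females. The counting intervals of the male and female libraries did not overlap. Female minus male was -0.40 (SE 0.083, limma unadjusted p = 0.00228, adjusted p = 0.231), and the adjusted p was 0.0941 with treatment as a covariate. Copg2, its neighbour on one side, was at 28.5, 27.9, 29.9 and 31.6 FPKM, and Cep41 on the other at 4.80, 3.69, 4.54 and 3.34 FPKM, neither of them lower in both female libraries.

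Snrpn encodes SmN, a neuronal protein of the splicing machinery. Its row was at 5.66 FPKM with vehicle and 5.18 with BPA in males, and 9.92 and 9.86 in females, on 70, 64, 121 and 121 fragments. Female minus male was 0.76 (SE 0.14, limma unadjusted p = 0.00101, adjusted p = 0.196), and the limma adjusted p was 0.0775 with treatment as a covariate. The same locus carries Snurf, read from a shared bicistronic transcript, whose row held 356, 342, 333 and 325 FPKM. The Snrpn row was 1.49% to 2.94% of the sum of both. Summed, the locus was at 361, 347, 343 and 335 FPKM, and female minus male became -0.062. The division of its fragments between both rows was not tested, so a difference in Snrpn RNA is uncertain. Ndn, from the same chromosomal cluster, was lower in both female libraries without passing the correction (-0.12, SE 0.069, limma adjusted p = 0.595). Dlk1 was at -0.74 (SE 0.36, adjusted p = 0.528) and H19 at 0.74 (SE 0.37, adjusted p = 0.532), and without female control these were -0.31 and 0.20.

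**Figure D4:**
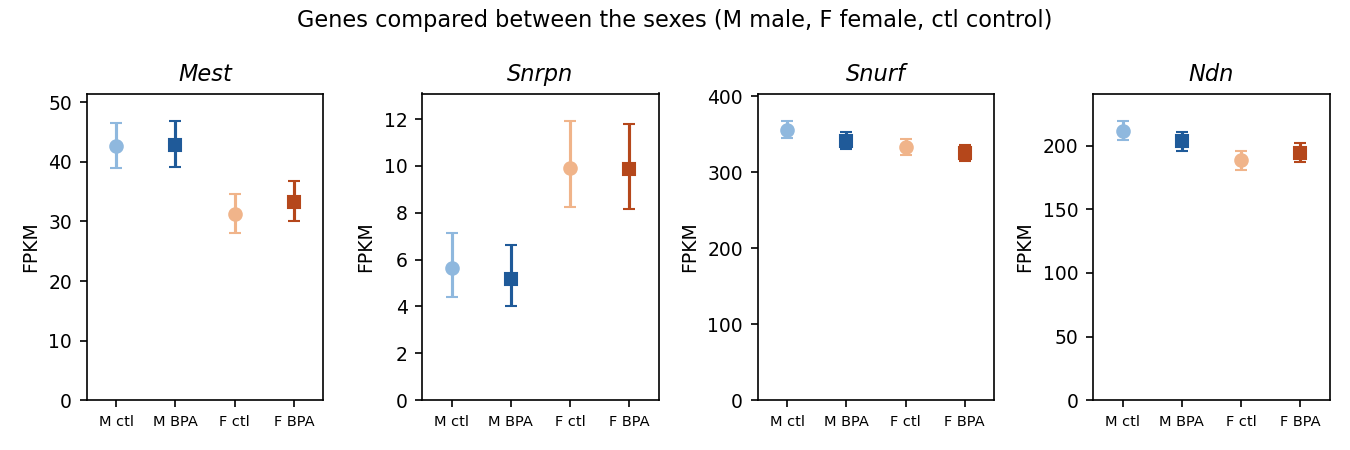
FPKM of Mest, Snrpn, Snurf and Ndn per library with exact Poisson 95% intervals (circles, control; squares, BPA; blue, male; orange, female; axes start at 0). Mest was lower in both female libraries (31.2 and 33.3 FPKM) and the Snrpn row higher (9.92 and 9.86), while Snurf stayed between 325 and 356.

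The wider imprinted class also held no called gene. Of 54 other imprinted genes listed, 40 had a row, 39 a value in all 4 libraries, and 30 a mean of at least 1 FPKM. None of the 30 passed an adjusted p under 0.05 in limma for BPA or for sex. At an unadjusted p under 0.05 there was 1 for BPA, beside 4.70% of all rows, and 3 for sex, beside 10.6%. Both BPA libraries were above both controls for 3 (13.8% of all rows) and below for 3 (19.9%). Both female libraries were above both male libraries for 6 (19.8% of all rows) and below for 10 (22.5%). The median BPA difference was 0.045 over 13 paternally expressed genes, -0.029 over 10 maternally expressed genes and -0.061 over 7 whose active copy depends on transcript or tissue.

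The most abundant were Nnat, a proteolipid gene of differentiating neurons, at 1025 to 1247 FPKM, and Gnas, which encodes the stimulatory G protein alpha subunit, at 657 to 710 FPKM. Snurf came next, and then Cd81, a tetraspanin, at 161 to 191 FPKM. The BPA differences of these 4 lay between -0.092 and 0.058. The largest positive differences were those of Tssc4, Impact and Ube3a. Tssc4, a maternally expressed gene of the Cdkn1c cluster, was at 14.3 (vehicle) and 22.3 FPKM (BPA) in males and 14.7 and 17.6 FPKM in females. Both BPA libraries were above both controls, with a difference of 0.42 (SE 0.14, limma unadjusted p = 0.0224, adjusted p = 0.973), which did not pass the correction. Over the libraries left out in turn, this difference ran from 0.26 (without male BPA) to 0.59 (without female BPA). Impact, a regulator of translation, differed by 0.13 (SE 0.15) and Ube3a, the ubiquitin ligase of Angelman syndrome, by 0.10 (SE 0.14). The largest negative differences were those of Igf2, Dcn (-0.72, SE 0.42, adjusted p = 0.973) and Dio3. The value for Dcn was -0.015 without female control. The genes nearest to Dlk1 were Tssc4 and Peg12, at distances of 0.74 and 0.81, farther than those of H19 and Cdkn1c. Peg12 was at 1.42, 1.91, 1.13 and 1.03 FPKM in that order.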

How the data were processed

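RNA-seq was done on 4 libraries, 1 per sex and treatment. The deposited values were FPKM made by the authors with a lowest value of 0.01, and the unit was read from the values. Per the submitters' processing notes the tools included HISAT 0.1.6, Bowtie2 2.2.5 and RSEM, and the build was rn6, with no role stated for each. FPKM values carry no fragment counts, so depth was estimated from the steps of low values: 95.8% to 98.7% of these lay within 0.15 of a whole fragment, where 30% would if evenly spread. Files of male and female libraries listed 16878 and 16942 rows, of which 16375 were shared. Rows in all 4 files with a mean of at least 1 were tested with limma 3.58.1 (R 4.3.3, empirical Bayes with trend) on log2(FPKM + 1) with Benjamini-Hochberg adjustment. This scale understates changes of low genes. The method was run on simulated data. The outcome is not reported here, so it gives no measure of the changes that 2 libraries against 2 could detect. A row was past the fold at an absolute difference of 1. The authors' own columns of fold changes and p-values were not used. Named genes were the 10 members and, of the other imprinted genes, the 4 most abundant, the 3 largest differences of each sign, the 2 nearest to each of the 3 members with the largest BPA difference, and neighbours of H19, Dlk1 and Meg3. Members and lists were chosen with earlier results of these data known. Begain, Copg2, Cep41, Mrpl23 and Apeg3 were named as neighbours in the RefSeq order (GRCr8) after their values were seen. Alternatives were pseudocount 0.1, a minimum mean of 5 or none, quantile and median ratio scaling, rows summed per gene, a covariate, each library left out, and, added after seeing the data, Snrpn with Snurf and Peg3 with Apeg3 summed.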

Additional observations from a re-analysis of the deposited data

Results flagged for a closer look

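Meg3 and Peg3 took opposite signs of BPA minus control in the male and the female pair of libraries. So did Dio3 and Igf2 among the other imprinted genes. The counting intervals within each pair did not overlap, except for Igf2 in males (7.84 to 9.95 FPKM with vehicle, 9.78 to 12.1 with BPA). Meg3 was at 0.19 in males and -0.74 in females on the log2(FPKM + 1) scale, and Peg3 at 0.19 and -0.12. Dio3 was at 0.94 in males and -1.86 in females, and Igf2 at 0.27 and -1.74. Whether the BPA difference differed between the sexes was not tested, because each sex had 1 library per treatment. For Igf2 the female value rested on the female control library, where the meningeal markers were highest; their part in it was not tested.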

How the results depend on the processing

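None of the 10 members and none of the 30 other imprinted genes was called by limma under any alternative in either comparison. Members at an unadjusted p under 0.05 numbered 0 for BPA, beside 637 of 13542 rows. They numbered 1 with sex as a covariate (1216 of 13542 rows) and 1 with rows summed per gene (639 of 12479). For sex they numbered 2 (1442 of 13542 rows), then 1 with Snrpn and Snurf summed (1441 of 13541). They numbered 3 with treatment as a covariate (1940 of 13542) and 4 with rows summed per gene (1403 of 12479). Over all rows, the count called for BPA rose from 0 to 2 with sex as a covariate and ran from 0 to 3 with a library left out (3 without female control, 1 without male BPA). The count called for sex rose from 1 to 21 with a mean of at least 5, 25 with rows summed per gene and 55 with treatment as a covariate, and ran from 1 to 2 with a library left out (2 without female control). Rows past the fold numbered 230 in males and 294 in females, and became 492 and 580 with a pseudocount of 0.1, 28 and 60 with a mean of at least 5, and 60 and 107 with rows summed per gene. With a pseudocount of 0.1 the female difference of Dlk1 was 1.45. The sign of BPA minus control turned for Peg3 with Apeg3 summed (-0.069), for Ndn with median ratio scaling (0.0069), and for Gnas (-0.054) and Nnat (-0.01) with quantile normalization. That of female minus male turned for Snrpn with Snurf summed (-0.062). Except for these sums, in which another row was added, the cause was not tested.

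BPA minus control changed sign without female control for H19 (-1.17 to 0.17 over the libraries left out in turn) and Igf2 (-1.55 to 0.082), and without either female control or male BPA for Snrpn (-0.46 to 0.35), Mest (-0.17 to 0.27), Gnas (-0.049 to 0.064) and Nnat (-0.060 to 0.18). It changed without male control for Peg3 (-0.057 to 0.13), Ndn (-0.086 to 0.078), Impact (-0.043 to 0.30), Ube3a (-0.010 to 0.21) and Snurf (-0.092 to 0.0016), for Peg3 also without male BPA and for Ndn also without female BPA. Dio3 (-1.55 to 0.63) changed without female BPA and Peg12 (-0.16 to 0.36) without male BPA. Female minus male changed sign without female control for Meg3 (-0.32 to 0.42), Peg3 (-0.065 to 0.13), Cdkn1c (-0.18 to 0.44), Plagl1 (-0.060 to 0.13), Grb10 (-0.14 to 0.29), Cobl (-0.10 to 0.16), Igf2 (-0.24 to 1.498) and Zim1 (-0.20 to 0.33), for Meg3 and Peg3 also without male control, and for Cobl and Zim1 also without male BPA. It changed for Tssc4 (-0.45 to 0.16) without male BPA, Ube3a (-0.012 to 0.21) without male control and Dio3 (-1.71 to 0.15) without female BPA. Dlk1 kept its sign in both comparisons, from 0.33 to 1.18 for BPA and from -1.17 to -0.31 for sex. Cdkn1c, Plagl1 and Grb10 kept theirs for BPA, and Mest and Snrpn for sex. The lone library left in an arm was assumed to vary like the others.

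The labels give no replicate numbers, so the only blocked fits were those with sex or treatment as a covariate. Among the 10 members, depth limited Dlk1 and H19 most, at 9 to 92 fragments per library.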
